A study of Mus musculus with 20 samples.

Results

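The comparison described here asks what the HIV-1 protein Tat changed in the brain transcriptome of mice that were not sensitized to methamphetamine (Meth). It sets the 5 Tat+/Sal mice against the 5 Tat−/Sal mice, which are 10 of the 20 arrays of the series, each array being 1 male mouse on a C57BL/6J background. Tat−/Sal mice carried only a Tet-binding protein under the GFAP promoter, and Tat+/Sal mice carried the same driver plus a TRE promoter-controlled Tat transgene. All mice of both groups received doxycycline, the inducer, at 100 mg/kg for 7 days together with daily saline. The other groups, Tat−/Meth and Tat+/Meth, received Meth at 2 mg/kg instead of saline and enter here only where they bear on this comparison. By the study's methods every mouse, saline-treated ones included, was later given a single Meth challenge, so the groups were not free of the drug at harvest. The methods describe dissected caudate putamen shortly after that challenge in adult mice several months old. The sample labels give another account, the left hemisphere after perfusion taken 24 h after the last injection at an age of 6 to 7 weeks, and the files cannot settle which holds. The model has further limits. Tat is made in astrocytes under a GFAP driver and not by infected cells, no virus replicates, and the array has no probe known to read the transgene, so its expression in these samples could not be checked. The array gene named Tat is the liver enzyme tyrosine aminotransferase.

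Tat is the transactivator of HIV-1. In infected cells it binds an RNA hairpin at the start of the viral transcript and recruits the kinase complex of Cdk9 and cyclin T1, which releases paused RNA polymerase II. Tat also leaves the cells that make it, enters neighbouring cells through receptors such as Lrp1, and is known in the brain for overactivating NMDA-type glutamate receptors, disturbing mitochondria and stirring inflammatory programmes in glia.

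The arrays were 1-colour Agilent arrays, and all values below are log2 signals set relative to each array's 75th percentile. A gene was tested where its brightest probe stood well above background on every array of Tat−/Sal, of Tat+/Sal or of both, which 14996 genes did (14469 of them in both groups, 420 through Tat−/Sal only and the rest through Tat+/Sal only). Between 55.3 and 68.1% of probes were well above background on each of the 10 arrays. Genes that mark striatal projection neurons were measured well. All 10 listed markers of Drd1 medium spiny neurons, 9 of 10 of Drd2 neurons and 28 of 29 shared by both were tested. Markers of regions outside the striatum were measured too, such as 11 of 18 cerebellar genes and 10 of 14 markers of midbrain dopamine neurons, whereas 3 of 39 Hox genes were. A lower signal in such tissue can mean fewer cells of a type or less RNA per cell, and these cannot be told apart. The slides limit every result. The 5 Tat−/Sal arrays lay on the slide called slide 2 here and the 5 Tat+/Sal arrays on slide 3, so Tat and slide cannot be told apart within the saline groups. Tat+/Meth was the only group on both, with replicates 1 to 3 on slide 2 and replicates 4 and 5 on slide 3, and the difference between its 2 parts is called the slide difference below. Tat−/Meth lay alone on slide 1, where the bright corner control spots read 14.7 to 15.1 against 16.8 to 17.4 on the other slides.

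At a Benjamini-Hochberg adjusted p under 0.05, 220 genes (1.47% of those tested) differed between Tat+/Sal and Tat−/Sal, 119 higher (0.794%) and 101 lower (0.674%) in Tat+/Sal. Most differences were small. Only 4 genes (0.0267%) also passed 2-fold, and all 4 were lower. Of these, Bex6, Abhd3 and Ccne2 passed the filter through Tat−/Sal only, a route that favours lower values in Tat+/Sal. Among genes well above background in both groups, 1 passed 2-fold. In 742 genes (4.95%) the 2 groups did not overlap, 279 of them higher (1.86%) and 463 lower (3.09%). The 420 genes that passed through Tat−/Sal only had a median difference of −0.283. The smaller set that passed through Tat+/Sal only had 0.253. With the test restricted to genes well above background in both groups, 251 were called, 54.2% of them higher, against 54.1% in the main comparison. How far the filter sets the balance among genes without overlap was not tested. At an unadjusted p under 0.05 there were 1392 higher (9.28%) and 1714 lower (11.4%) genes. The slide difference called 0 genes by limma (613 at an unadjusted p under 0.05, 4.09%), and the Tat difference less the slide difference called 0 as well (812 at an unadjusted p under 0.05, 5.41%). That last contrast rests on 2 against 3 arrays for its slide term. In simulated data with the spread of these arrays it recovered 56% of 50 genes changed by 1 log2 unit and 14% of 50 changed by 0.35, against 86% and 48% for the plain comparison. The count of 220 was not stable. It became 7, 5, 567 and 8 without Tat−/Sal replicate 1, 2, 3 or 4, and 364, 343, 105, 70 and 6 without Tat+/Sal replicate 1, 2, 3, 4 or 5. With only the 2 saline groups in the fit it was 11. Quantile normalization gave 506, of which 42.5% were higher against 54.1% in the main comparison, median scaling gave 3 and no scaling 15, all lower.

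The largest decreases were in genes of varied function. Cox17, a copper chaperone for cytochrome c oxidase, read 9.20, 8.89, 8.85, 8.81 and 9.05 in the 5 Tat−/Sal mice and 7.68, 7.94, 7.73, 7.61 and 7.67 in the 5 Tat+/Sal mice. Every Tat+/Sal value was far below every Tat−/Sal value. The difference was −1.23 (SE 0.21, adjusted p = 0.0175). Bex6, of the brain-expressed X-linked family, read 6.48, 6.40, 6.09, 6.17 and 6.37 against 4.78, 5.53, 4.30, 4.33 and 3.95, a difference of −1.73 (SE 0.25, adjusted p = 0.010), and was well above background on 1 of the 5 Tat+/Sal arrays. Its groups did not overlap either, but the Tat+/Sal values lie near the limit of detection. Abhd3, a phospholipase of the alpha/beta hydrolase fold, differed by −1.20 (SE 0.25, adjusted p = 0.0324) and was well above background on 2 Tat+/Sal arrays. Ccne2, which encodes cyclin E2, was well above background on no Tat+/Sal array, so its decrease is a bound of at least 1.09-fold (measured means 5.41 and 4.23, adjusted p = 0.00692).

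Cbx7, a chromobox reader of Polycomb-marked chromatin, came next among genes measured on all 10 arrays. It read 9.56, 9.56, 9.31, 9.34 and 9.52 in Tat−/Sal and 8.55, 8.45, 8.53, 8.55 and 8.31 in Tat+/Sal, with a difference of −0.98 (SE 0.17, adjusted p = 0.0175). Lingo1, a membrane partner of the Nogo receptor that restrains axon growth and myelination, read 10.52, 10.29, 10.27, 10.49 and 10.41 against 9.68, 9.55, 9.26, 9.40 and 9.42 (difference −0.94, SE 0.19, adjusted p = 0.0310). In both genes the groups were separated by a wide gap. Smaller decreases without overlap were found for Smg8, a regulator of the nonsense-mediated decay kinase (−0.58, SE 0.08, adjusted p = 0.00692), for Csf2rb2, a beta chain of the interleukin-3 receptor (−0.52, SE 0.11), for Tnfrsf10b, the death receptor for TRAIL (−0.50, SE 0.12), for the unconventional myosin Myo1c (−0.49, SE 0.10), and for Uchl3, a ubiquitin hydrolase (−0.49, SE 0.12). Csf2ra, the alpha chain of the GM-CSF receptor, was called lower too (−0.34, SE 0.08, adjusted p = 0.0479), though its groups overlapped.

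The genes higher in Tat+/Sal changed less. Bcam, a laminin-binding adhesion molecule of vessels and meninges, had the largest called increase, 0.63 (SE 0.15, adjusted p = 0.0404), but its groups overlapped, since Tat−/Sal replicate 3 read 8.39 and Tat+/Sal replicate 1 read 8.36. Mt3, the brain metallothionein that binds zinc and copper, read 13.27, 13.12, 13.13, 13.25 and 13.36 in Tat−/Sal and 13.66, 13.42, 14.08, 13.80 and 13.83 in Tat+/Sal, a difference of 0.54 (SE 0.10, adjusted p = 0.0268). All 5 Tat+/Sal values were above all Tat−/Sal values. Clip2, a microtubule plus-end linker protein, was higher by 0.55 (SE 0.11), Arpc4, a subunit of the actin-nucleating Arp2/3 complex, by 0.50 (SE 0.09), and Sez6, a neuronal protein of dendrite and synapse growth, by 0.44 (SE 0.09), each without overlap. Ubxn11, a UBX-domain protein, Smarcd1, a subunit of the SWI/SNF chromatin remodeller, and Arhgdig, a GDP dissociation inhibitor, were higher by 0.50 (SE 0.09), 0.43 (SE 0.09) and 0.41 (SE 0.08). Tuba4a, an alpha tubulin, had a small increase with little spread, 0.25 (SE 0.04, adjusted p = 0.0175).

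Whether a difference followed the slide varied from gene to gene. Cox17 in Tat+/Meth mice read 8.85, 8.96 and 9.01 on slide 2 and 7.97 and 8.02 on slide 3. Mice of the same genotype and treatment thus split in the way the saline groups did. The slide difference was −0.95 (SE 0.21) for Cox17, −0.87 (SE 0.15) for Cbx7, −0.65 (SE 0.24) for Lingo1 and −0.51 (SE 0.12) for Tnfrsf10b, and what was left of the Tat difference was −0.29 (SE 0.25), −0.11 (SE 0.18), −0.28 (SE 0.29) and 0.01 (SE 0.15). Over the called genes, 177 of 220 (80.5%) had a slide difference of the same sign as the Tat difference, against 59.1% of all genes tested. The 2 differences come from different mice but from the same pair of slides. Among the 101 called-lower genes their Pearson correlation was 0.80, and among the 119 called-higher genes it was 0.07. The slide difference came to more than 50% of the Tat difference in 19 called-lower and 9 called-higher genes. It was opposite in sign or under 25% of the Tat difference in 42 called-lower and 68 called-higher genes. Over all 14996 genes tested the slide difference was over 50% in 5949, opposite in sign in 6139 and of the same sign but under 25% in 1473. A small slide difference was thus common among all genes and does not set the called genes apart. The 4 genes past 2-fold all had a lower value on slide 3 within Tat+/Meth, by 0.55 to 0.95 log2 units. On slide 1 the Tat−/Meth arrays read lower still for them, for example 6.13 to 6.99 for Cox17.

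**Figure D1:**
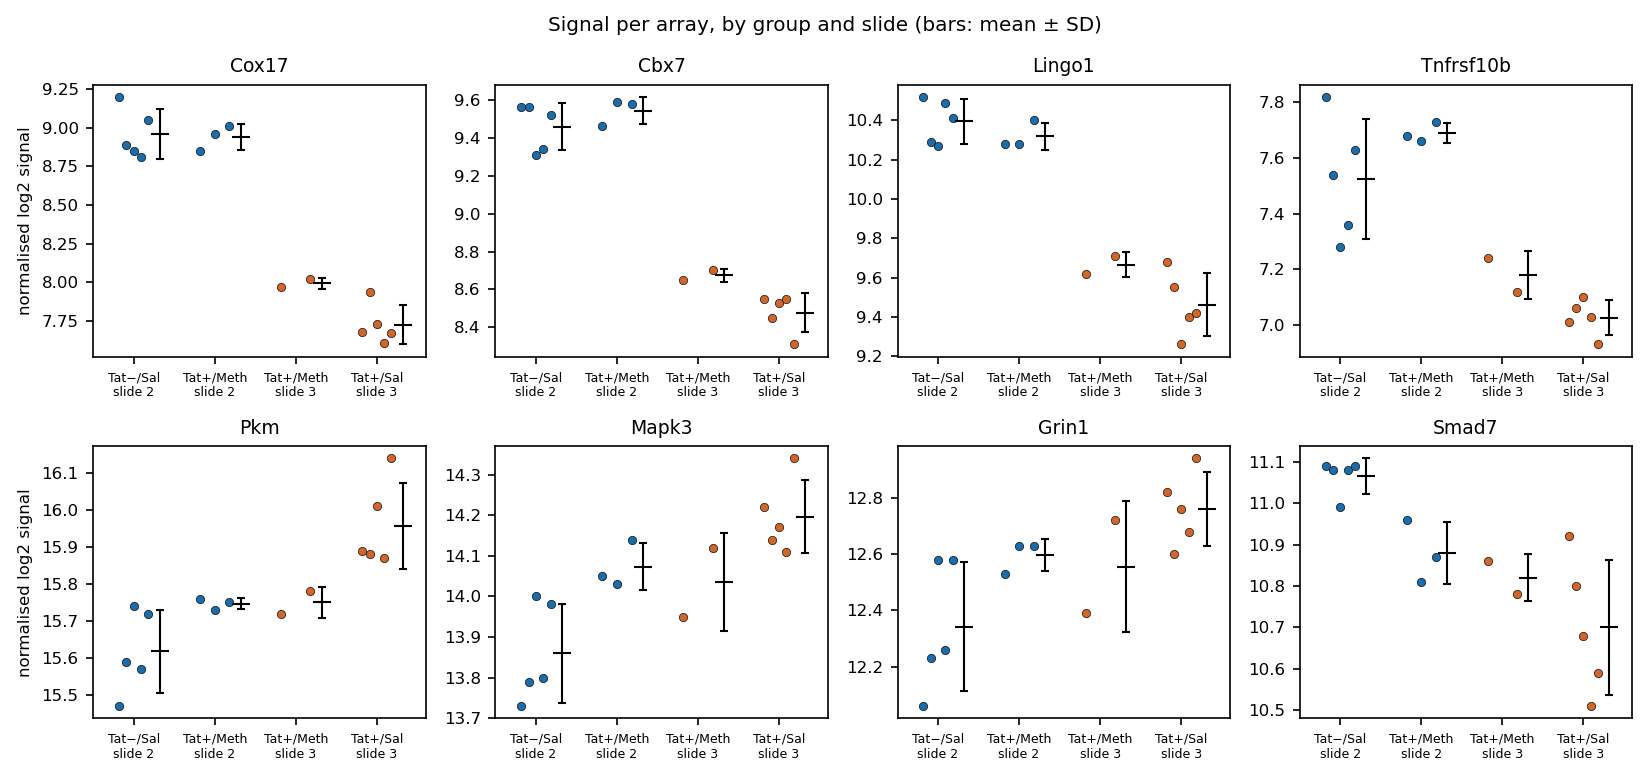
Normalised log2 signal (vertical axes) of 8 called genes on each array of Tat−/Sal, Tat+/Meth and Tat+/Sal, with Tat+/Meth split by slide; blue points are slide 2, orange points slide 3, and the bars are the mean and SD of the 2 to 5 arrays. In the upper row the Tat+/Meth arrays on slide 3 sit beside Tat+/Sal (Cox17 at 7.97 and 8.02), and in the lower row the Tat+/Meth arrays of both slides lie close together (Pkm at 15.72 to 15.78).

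**Figure D2:**
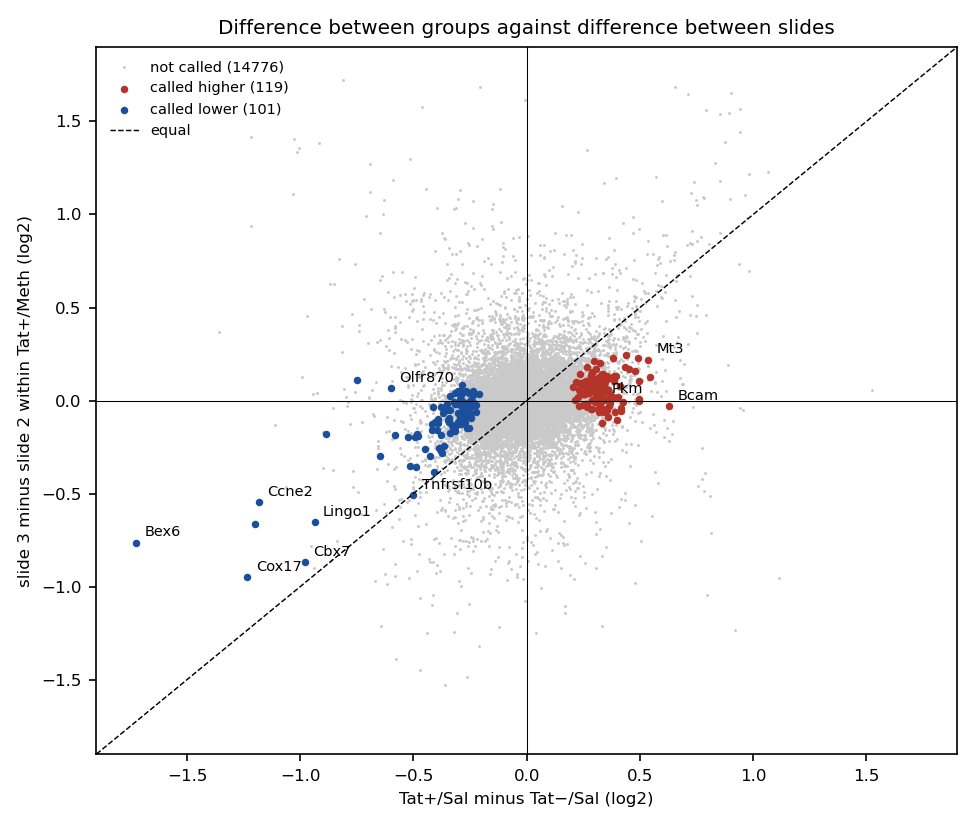
For each gene, the difference Tat+/Sal minus Tat−/Sal (horizontal, log2) against the slide difference within Tat+/Meth (vertical, log2); grey points are genes not called, red and blue points the 119 called higher and 101 called lower, the dashed line marks equal values, and 7 genes lie outside the plotted range. Cox17, Cbx7 and Tnfrsf10b lie at or near the line, and most called-higher genes lie near 0 on the vertical axis.

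A second set of called genes was picked for a slide difference of the other sign or under 25% of the Tat difference. Their small slide differences thus follow from the choice, and each rests on 2 against 3 arrays. With the slide difference taken off 0 genes were called, and Tat and slide cannot be told apart in this set. Among called-lower genes with all 10 arrays measured, those of this kind with small p-values included Smad7, the inhibitory Smad that damps TGF-beta signalling, and Btaf1, which removes the TATA-binding protein from promoters. Smad7 read 11.09, 11.08, 10.99, 11.08 and 11.09 in Tat−/Sal and 10.92, 10.80, 10.68, 10.51 and 10.59 in Tat+/Sal. The groups did not overlap, the difference was −0.37 (SE 0.07, adjusted p = 0.0175), and the slide difference was −0.06 (SE 0.10). Btaf1 differed by −0.32 (SE 0.06, adjusted p = 0.0251) with a slide difference of 0.04 (SE 0.09), and Nek3, a NIMA-related kinase, by −0.35 (SE 0.07, adjusted p = 0.0304) with −0.02 (SE 0.11). Tmem39a, Epdr1, Son, a splicing cofactor of nuclear speckles, and Sec24b, a cargo adaptor of COPII vesicles, were lower by 0.25 to 0.30 with slide differences of −0.03 to 0.01. For Smad7 and Sec24b the Tat+/Meth arrays lay between the lowest Tat+/Sal and the highest Tat−/Sal value, at 10.78 to 10.96 and 11.79 to 11.96.

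Pkm led the called-higher genes of this kind that belong to a listed pathway. This gene for pyruvate kinase, the last step of glycolysis, read 15.47, 15.59, 15.74, 15.57 and 15.72 in Tat−/Sal and 15.89, 15.88, 16.01, 15.87 and 16.14 in Tat+/Sal. No values overlapped, the difference was 0.34 (SE 0.06, adjusted p = 0.0175), and the slide difference was 0.00 (SE 0.09). Mapk3, the kinase Erk1, read 13.73, 13.79, 14, 13.80 and 13.98 against 14.22, 14.14, 14.17, 14.11 and 14.34 (difference 0.34, SE 0.06, adjusted p = 0.0175, slide difference −0.04). The gap between its groups was narrow but complete. Map2k2, the kinase Mek2 that activates it, was called higher by 0.27 (SE 0.06, adjusted p = 0.0377), and Map3k11, an upstream kinase, by 0.34 (SE 0.07, adjusted p = 0.0290), with slide differences of 0.10 and −0.06. Macrod1, an ADP-ribose hydrolase, Noc4l, a factor of small ribosomal subunit assembly, Atp5d, the delta subunit of ATP synthase, and Ppt2, a lysosomal thioesterase, were higher by 0.33 to 0.39 with slide differences from −0.06 to 0.07.

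Grin1, the obligate subunit of NMDA receptors, was the only one of 26 ionotropic glutamate receptor genes tested that was called. It read 12.06, 12.23, 12.58, 12.26 and 12.58 in Tat−/Sal and 12.82, 12.60, 12.76, 12.68 and 12.94 in Tat+/Sal. The lowest Tat+/Sal value stood just above the highest Tat−/Sal value. The difference was 0.42 (SE 0.09, adjusted p = 0.0377) and the slide difference −0.04 (SE 0.14). The family as a whole did not follow it, with a median of −0.05 and 12 genes up and 14 down in sign. Gria2, an AMPA receptor subunit, differed by 0.33 (SE 0.10, adjusted p = 0.0951) and Gria1 by −0.13 (SE 0.07, adjusted p = 0.275). Among 49 genes of synaptic vesicle release 2 were called, both lower, Unc13b, a vesicle priming factor (−0.26, SE 0.06, adjusted p = 0.0372), and Amph, amphiphysin of endocytosis (−0.25, SE 0.06, adjusted p = 0.0377). Of 63 axon guidance genes the semaphorins Sema4g (0.36, SE 0.08) and Sema6b (0.27, SE 0.06) were called higher. Over all genes tested 1.47% were called. Neither list as a whole followed its called genes. The vesicle list had a median of 0.04 with 27 genes positive (7 higher and 6 lower at an unadjusted p under 0.05). The axon guidance list had a median of −0.02 with 36 genes negative (5 higher and 4 lower).

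Glycolysis was the metabolic pathway with the highest median. Of 21 genes tested 2 were called, Pkm and the enolase gene Eno1 (0.27, SE 0.06, adjusted p = 0.0381), and 16 were positive in sign. The median of the list was 0.12 against −0.01 over all genes, with 0.02 for the slide difference and 0.06 for the Tat difference less the slide difference. Pfkm and Pfkl, subunits of phosphofructokinase, differed by 0.27 (SE 0.07, adjusted p = 0.0504) and 0.34 (SE 0.09, adjusted p = 0.0550), Tpi1, triose phosphate isomerase, by 0.25 (SE 0.07, adjusted p = 0.0659) and Gapdh by 0.13 (SE 0.05, adjusted p = 0.180), none of which passed. Ldha, lactate dehydrogenase, had the other sign (−0.11, SE 0.06, adjusted p = 0.344). The mean over the list ran from −0.06 to 0.07 in the Tat−/Sal arrays and from 0.03 to 0.13 in the Tat+/Sal arrays, so that the 2 groups overlapped. Without scaling the list median was −0.03, while the median of all genes then fell to −0.16. Less the median of all genes, the list median was above 0 under each setting run, the lowest being 0.0467.

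Other energy lists had few called genes, where 1.47% of all genes tested were called. At an unadjusted p under 0.05, 9.28% of all genes were higher and 11.4% lower. Of 37 complex I genes and 17 subunits of cytochrome c oxidase 0 were called (3 and 2 at an unadjusted p under 0.05, all higher). Of 22 cytochrome c oxidase assembly genes Cox17 was the only one called, and 6 were lower and 2 higher at an unadjusted p under 0.05. ATP synthase had 1 of 18 called (Atp5d), the citric acid cycle 1 of 23 (Ogdh, of the oxoglutarate dehydrogenase complex, 0.35, SE 0.09, adjusted p = 0.0467), the vacuolar ATPase 1 of 21 (Atp6v0b, 0.26, SE 0.06, adjusted p = 0.0465) and the mitochondrial ribosome 1 of 77 (Mrpl38, 0.32, SE 0.07, adjusted p = 0.0324). At an unadjusted p under 0.05 these lists had, in that order, 4, 4, 5 and 9 genes higher and 0, 2, 2 and 4 lower. Ogdh depended on the probe, since another of its probes that passed gave −0.26. Hadha, the alpha subunit of the mitochondrial trifunctional protein of fat oxidation, was called higher (0.30, SE 0.07, adjusted p = 0.0467), with a slide difference of 0.21 (SE 0.09). The 81 cytosolic ribosomal proteins had a median of 0.04, and 62 were positive (13 higher and 2 lower at an unadjusted p under 0.05). Rpl41 (0.24, SE 0.05, adjusted p = 0.0365) and Rps15 (0.39, SE 0.09, adjusted p = 0.0377) were called higher. The sign of that median turned under quantile normalization (−0.02).

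Of 31 antioxidant and Nrf2 target genes 2 were called, Mt3 and Gstp1, a glutathione transferase. Gstp1 read 14.33, 14.36, 14.40, 14.29 and 14.37 in Tat−/Sal and 14.50, 14.68, 14.71, 14.73 and 14.79 in Tat+/Sal. Its groups did not overlap, with a difference of 0.33 (SE 0.06, adjusted p = 0.0251) and a slide difference of 0.07 (SE 0.09). The list had a median of 0.06, 0.02 for the slide difference, and 20 of its genes were positive. Without scaling that median was −0.09, while the median of all genes then fell to −0.16. Less the median of all genes, the list median was above 0 under each setting run, the lowest being 0.0354.

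Regulators of transcription were mixed. Among 44 listed host cofactors of Tat, 42 were tested and 1 was called, Aff4, the scaffold of the super elongation complex, which was lower by 0.37 (SE 0.07, adjusted p = 0.0268). Aff4 read 12.07, 12.12, 12.00, 12.14 and 12.08 in Tat−/Sal and 11.78, 11.86, 11.69, 11.57 and 11.64 in Tat+/Sal, a clear separation, but its slide difference was −0.28 (SE 0.08) and left −0.09 (SE 0.10). The kinase Cdk9 and its cyclin Ccnt1 differed by 0.14 (SE 0.06, adjusted p = 0.151) and 0.30 (SE 0.08, adjusted p = 0.0530) and did not pass. Of 32 Polycomb genes Cbx7 and Rybp, a subunit of the variant complex, were called lower, Rybp by 0.35 (SE 0.08, adjusted p = 0.0412) with a slide difference of −0.05. Of 89 histone and DNA modifying genes tested 2 were called lower, among them Kdm1b, a lysine demethylase (−0.28, SE 0.06, adjusted p = 0.0393), and Brd9, a bromodomain subunit of SWI/SNF, was lower by 0.24 (SE 0.05, adjusted p = 0.0383). Polr1e, of RNA polymerase I, was higher by 0.21 (SE 0.05, adjusted p = 0.0478). Of 20 genes for Tat surface receptors and dopamine transport, Lrp1 had a difference of 0.23 (SE 0.07, adjusted p = 0.0996), short of the threshold.

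The Zfp zinc finger genes, most of them DNA-binding proteins with KRAB repressor domains, leaned downward. Of 320 tested 5 were called, all lower: Zfp53 (−0.48, SE 0.11), Zfp985 (−0.39, SE 0.09), Zfp84 (−0.34, SE 0.08), Zfp788 (−0.39, SE 0.09) and Zfp560 (−0.41, SE 0.10), with adjusted p-values of 0.0377 to 0.0475. Over all genes tested 1.47% were called, so 5 of 320 is near that share, and 0.674% were called lower. At an unadjusted p under 0.05 there were 61 lower and 19 higher, where 11.4% of all genes were lower and 9.28% higher. The median was −0.06 and 213 were negative, beside −0.01 and 7971 of 14996 for all genes, and the slide difference had a median of −0.03. Less the slide difference the median was −0.02. Relative to all genes the median was −0.05, and it stayed within −0.07 to −0.04 with each array left out in turn and −0.06 to −0.04 under the other settings without a slide term. Zfp84 changed sign on another of its probes (0.08).

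Olfactory, vomeronasal and taste receptors, sensory genes that are weakly transcribed in brain, had a median of −0.17 over the 192 of 1378 that were tested, and 48 of these passed the filter through 1 group only. Over the members measured in both groups the median was −0.11. Their slide difference had a median of −0.10, and less the slide difference the median was −0.01. Olfr870 was called, at 6.81, 6.79, 6.84, 6.85 and 6.78 in Tat−/Sal and 6.14, 6.14, 6.32, 6.36 and 6.10 in Tat+/Sal (difference −0.60, SE 0.14, adjusted p = 0.0381). Its groups were far apart and its slide difference was 0.07 (SE 0.20). On slide 1 the mean over the list, relative to the Tat−/Sal mean, was −1.71 to −1.12. That slide held only Tat−/Meth, so slide and Meth cannot be told apart in it.

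The called genes differed in a property that the test did not use, the length of the locus. In the GRCm38.p6 annotation the 14996 genes had a median length of 21.9 kb (quartiles 8.61 and 54.6), the 119 called higher 9.79 kb (4.30 and 21.1) and the 101 called lower 44 kb (24.1 and 99.4). Short genes were thus frequent among increases and long genes among decreases. Of the genes called higher 47.1% lay in the shortest quartile of all genes and 5.88% in the longest, and of the genes called lower 11.9% and 42.6%. The contrast was present among the called genes whose slide difference was opposite or under 25%, with medians of 9.89 kb for the 68 higher and 39.4 kb for the 42 lower. In the decile of genes with the longest loci (126 kb and above) 2 were called higher and 21 lower, and in the decile with the shortest (up to 3.57 kb) 26 higher and 4 lower. The median difference ran from 0.02 in the second decile to −0.06 in the last, while that of the slide difference stayed between −0.02 and 0.01. Spearman's rank correlation with length over 14996 genes was −0.12 for the Tat difference, −0.02 for the slide difference and −0.09 for the Tat difference less the slide difference. Genes are not independent, and these values describe the arrays only.

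Per array, the median of the shortest decile less that of the longest, each gene centred on its Tat−/Sal mean, was 0.02, −0.01, 0.03, −0.04 and 0.02 in Tat−/Sal and 0.03, 0.06, 0.03, 0.12 and 0.07 in Tat+/Sal. The lowest Tat+/Sal array (0.0321) lay just above the highest Tat−/Sal array (0.0277). Tat+/Meth read 0.01 to 0.10 on slide 2 and 0.02 and 0.07 on slide 3, and Tat−/Meth on slide 1 read −0.20 to −0.05. Within Tat+/Meth the 2 slides overlapped, and on slide 1 the slide cannot be told apart from Meth.

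**Figure D3:**
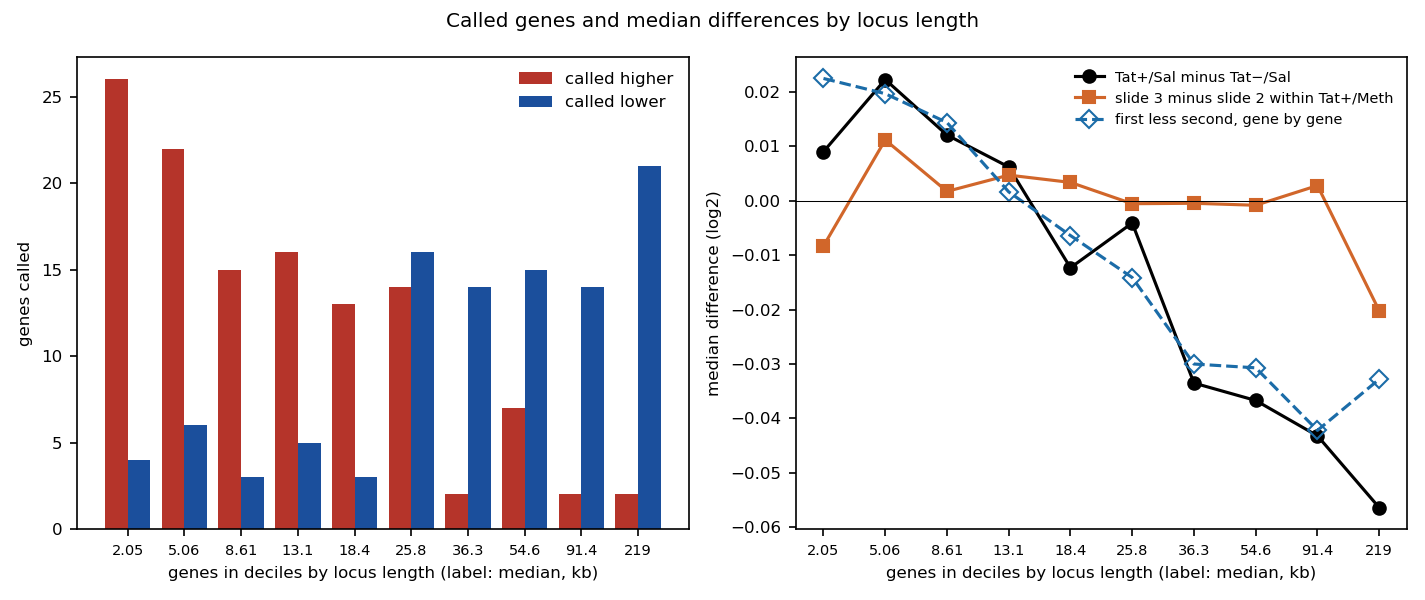
Genes in deciles by locus length from short (left) to long (right), each labelled with its median in kb. The left panel counts genes called higher (red) and lower (blue), from 26 and 4 in the shortest decile to 2 and 21 in the longest, and the right panel gives the median log2 difference of Tat (black), of slide within Tat+/Meth (orange) and of the first less the second (blue, dashed).

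Cell-type programmes showed few called genes. Of all genes tested 1.47% were called, so 0 in a list of this size is near the background. At an unadjusted p under 0.05, 9.28% of all genes were higher and 11.4% lower. Astrocytes, the cells that express the transgene, had a median of 0.02 over 39 markers with 0 called (5 at an unadjusted p under 0.05, all higher). Gfap itself, whose promoter drives the system, read 11.10, 10.87, 11.20, 11.22 and 10.49 in Tat−/Sal and 11.37, 11.17, 10.39, 10.91 and 10.85 in Tat+/Sal. The groups overlapped fully (difference −0.04, SE 0.22, adjusted p = 0.945). Of 28 reactive astrocyte genes 0 were called (1 higher and 2 lower at an unadjusted p under 0.05) and the median was −0.05, with Vim, the intermediate filament vimentin, at −0.05 (SE 0.13). Microglia had a median of 0.05 over 38 markers, less than their slide difference of 0.09, and 0 were called (4 higher and 3 lower at an unadjusted p under 0.05). The microglial receptors Cx3cr1 and P2ry12 differed by −0.04 (SE 0.09) and −0.14 (SE 0.11). Oligodendrocyte and myelin genes had a median of 0.03 with a slide difference of 0.12, and Mbp, a major myelin protein, differed by 0.02 (SE 0.07).

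Among neurons, the list shared by both kinds of medium spiny neuron had a median of 0.08 over 28 genes, with a slide difference of −0.01. One of them was called, Spock3, a proteoglycan of the testican family, which was lower by 0.36 (SE 0.09, adjusted p = 0.0470). Ppp1r1b, the dopamine-regulated phosphatase inhibitor DARPP-32, read 17.85, 17.91, 18.14, 17.81 and 18.16 in Tat−/Sal and 18.17, 18.19, 18.41, 18.21 and 18.34 in Tat+/Sal. The groups did not overlap, yet the difference of 0.29 (SE 0.07, adjusted p = 0.0560) missed the threshold, and its slide difference was −0.08 (SE 0.11). Of the Drd1 neuron markers 8 of 10 were negative (median −0.05), and of the Drd2 neuron markers 7 of 9 were positive (median 0.11). None of either list was called, and the mean over each list overlapped between the groups. Drd1 and Tac1 of the direct pathway differed by 0.05 (SE 0.06) and −0.08 (SE 0.07), Drd2 and Penk of the indirect pathway by 0.11 (SE 0.14) and 0.02 (SE 0.06).

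Markers of cortical glutamatergic neurons had a median of −0.13 over 24 genes, and none was called (8 lower and 0 higher at an unadjusted p under 0.05). Over the members measured in both groups that median was −0.09. Tbr1, a transcription factor of deep cortical layers, read 8.34, 9.01, 9.48, 10.46 and 8.47 in Tat−/Sal and 10.05, 7.77, 7.55, 7.52 and 7.91 in Tat+/Sal. The groups overlapped, with replicate 4 of Tat−/Sal and replicate 1 of Tat+/Sal above the rest of their groups. The mean over the list was 0.37 on the first of these arrays (−0.16 to −0.03 on the other Tat−/Sal arrays) and 0.39 on the second (−0.39 to −0.36 on the other Tat+/Sal arrays). Neurod2 followed the same arrays, at 9.07 and 8.87. Leaving out the former array gave a list median of −0.02, and leaving out the latter gave −0.22. Without both of these arrays 38 genes were called in the whole comparison. How much cortex each sample held was not tested.

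Ependymal and motile cilia genes, which mark the lining of the ventricle, were mostly higher in sign. Of 46 tested 42 were positive, with a median of 0.23 beside a slide difference of 0.05, and 0 were called (5 higher and 0 lower at an unadjusted p under 0.05). Ccdc153, a cilia gene, read 12.51, 12.07, 11.47, 12.12 and 11.42 in Tat−/Sal and 12.18, 12.54, 12.22, 12.93 and 12.55 in Tat+/Sal (difference 0.57, SE 0.22, adjusted p = 0.159). The groups overlapped, and replicates 3 and 5 of Tat−/Sal were the lowest. Foxj1, the master regulator of motile cilia, differed by 0.47 (SE 0.23, adjusted p = 0.256), Tppp3 by 0.37 (SE 0.11, adjusted p = 0.0938), Rarres2 by 0.38 (SE 0.17, adjusted p = 0.207) and Pifo by 0.33 (SE 0.12, adjusted p = 0.141). The mean over the list ran from −0.29 to 0.41 in Tat−/Sal and from 0.03 to 0.52 in Tat+/Sal, and its spread within Tat+/Meth was as wide, −0.14 to 0.43 on slide 2. With each array left out in turn the median stayed between 0.14 and 0.34.

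Red blood cell, meningeal and immediate early genes had a larger median for the slide difference than for Tat. Red blood cell genes (9 tested, 0 called and 0 at an unadjusted p under 0.05) had a median of 0.20 for Tat and 0.66 for slide, and their mean per Tat+/Meth array overlapped between the slides (−0.50 to 0.23 on slide 2 and 0.20 to 0.31 on slide 3). Meningeal and fibroblast genes (22 tested, 0 called, 3 lower at an unadjusted p under 0.05) had medians of −0.07 and 0.20, and the 40 immediate early genes, which are induced by neuronal activity and drug challenge, −0.01 and 0.18 (0 called, 2 in each direction at an unadjusted p under 0.05). Hba-a1, a haemoglobin gene, differed by 0.42 (SE 0.32, adjusted p = 0.477) and Fos by −0.35 (SE 0.20, adjusted p = 0.328).

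**Figure D4:**
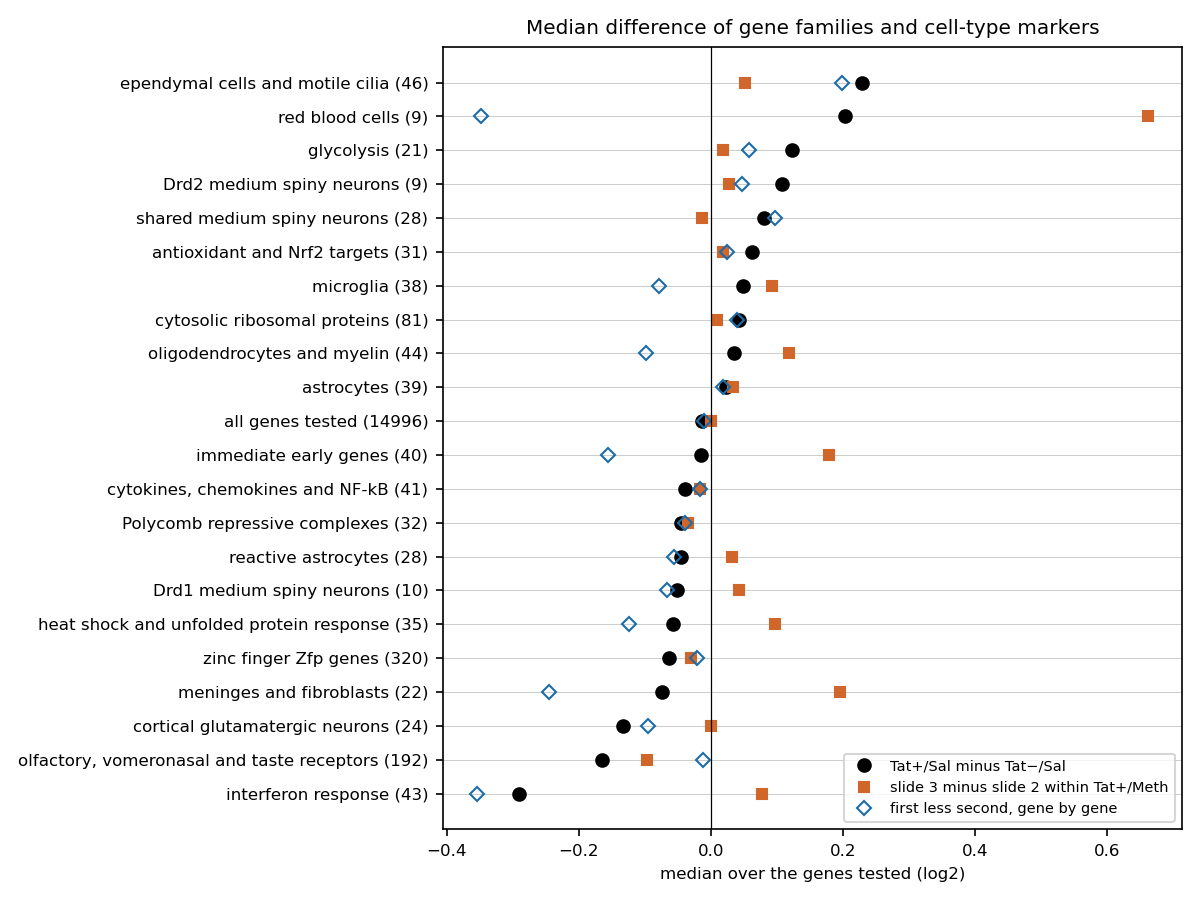
Median log2 difference over the genes tested (number in brackets) for 21 gene lists and for all genes; black circles give Tat+/Sal minus Tat−/Sal, orange squares the slide difference within Tat+/Meth, and open diamonds the first less the second. The interferon list is lowest (−0.29) and the cilia list highest (0.23), and in red blood cell, meningeal, myelin and immediate early genes the slide value is larger than the Tat value.

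Interferon-stimulated genes, the antiviral programme switched on through the ISGF3 complex at ISRE elements, had a median of −0.29. Of 43 tested 37 were negative, and 0 were called (5 lower and 0 higher at an unadjusted p under 0.05). The promoters of 3 of them are printed from RefSeq (GRCm38.p6) to show where letters like those of an ISRE lie; a match is no evidence of binding. Each line gives the 120 bases before the transcription start, 5′ to 3′ on the gene's strand, and capitals mark matches to an ISRE-like motif, GAAA followed by any 2 bases and GAAA again, on either strand, which may overlap one another. Isg15 (ubiquitin-like modifier) lies at chr4:156200819-156200938 on the minus strand, Ifit1 (binds viral RNA) at chr19:34640769-34640888 on the plus strand, and Oas1a (senses double-stranded RNA) at chr5:120907526-120907645 on the minus strand.
Isg15: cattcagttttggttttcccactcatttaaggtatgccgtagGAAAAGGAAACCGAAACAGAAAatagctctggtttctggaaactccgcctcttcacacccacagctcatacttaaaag
Ifit1: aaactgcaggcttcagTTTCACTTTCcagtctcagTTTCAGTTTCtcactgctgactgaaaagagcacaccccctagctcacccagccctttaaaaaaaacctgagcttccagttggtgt
Oas1a: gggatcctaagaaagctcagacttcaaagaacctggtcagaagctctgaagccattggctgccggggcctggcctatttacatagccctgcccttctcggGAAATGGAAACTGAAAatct

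In windows from 250 bases before to 50 after the start, the motif was present for 22 of the 40 listed interferon genes with a promoter entry (55.0%) and for 1079 of 27025 genes in all (3.99%). Of the 32 tested genes with an entry, the 19 with the motif had a median of −0.30 (17 negative) and the 13 without it −0.12 (10 negative). A match is a stretch of letters and not a measured site.

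The interferon values rested on 1 mouse. Isg15 read 12.82, 10.37, 9.32, 9.53 and 9.65 in Tat−/Sal and 9.88, 9.52, 9.47, 9.21 and 10.28 in Tat+/Sal. Replicate 1 of Tat−/Sal stood far above all other arrays, and the remaining 4 lay among the Tat+/Sal values (difference −0.67, SE 0.45, adjusted p = 0.414). Oas1a read 10.35 in that replicate and 7.30 to 8.24 in the others of its group, and 6.86 to 8.05 in Tat+/Sal. Ifit1 read 10.33 there and 6.00 to 7.46 in the others. The mean over the list was 1.09 on this array, −0.38 to 0.00 on the other Tat−/Sal arrays and −0.46 to 0.01 in Tat+/Sal. Without it the median of the list was −0.01. The members past an unadjusted p of 0.05 included Iigp1 (−0.56, SE 0.14, adjusted p = 0.0560), an interferon-inducible GTPase, and Oas2 (−0.79, SE 0.29, adjusted p = 0.137). Iigp1 was lower in Tat+/Sal apart from 1 near tie, with 9.03 to 9.97 in Tat−/Sal and 8.71 to 9.05 in Tat+/Sal.

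**Figure D5:**
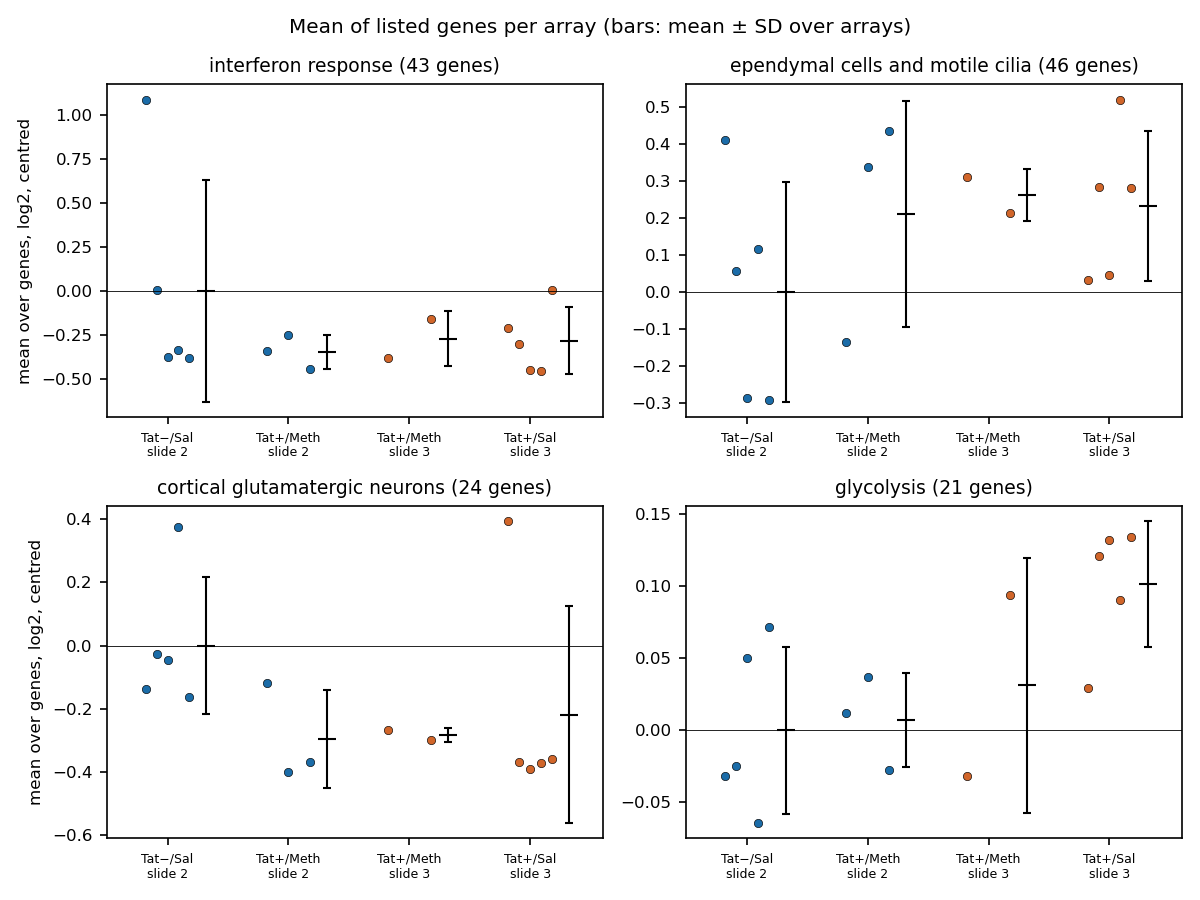
Mean log2 signal over the genes of 4 lists on each array (vertical axes), each gene centred on its Tat−/Sal mean, by group and slide (blue slide 2, orange slide 3; bars, mean and SD of the 2 to 5 arrays). One Tat−/Sal array reaches 1.09 in the interferon list, 1 array of each saline group reaches 0.37 and 0.39 in the cortical list, and the cilia and glycolysis means overlap between the saline groups.

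The lists of inflammatory genes had 0 calls, where 1.47% of all genes tested were called, so 0 in lists this short says little. Csf2rb2, Csf2ra and Tnfrsf10b, receptor genes called lower above, are not members of these lists. Of 41 cytokine, chemokine and NF-kB genes tested 11 were lower and 2 higher at an unadjusted p under 0.05, with a median of −0.04. Over all genes tested 11.4% were lower and 9.28% higher at that p. Il18, an interleukin released by inflammasomes, read 12.33, 12.53, 12.33, 12.32 and 12.39 in Tat−/Sal and 12.20, 12.02, 12.09, 12.13 and 12.20 in Tat+/Sal. Its groups did not overlap, but the difference of −0.25 (SE 0.07, adjusted p = 0.0669) did not pass. The inflammasome genes Nlrp3 and Casp1 differed by −0.54 (SE 0.16, adjusted p = 0.0816) and −0.36 (SE 0.13, adjusted p = 0.120), the former with overlap and the latter without, and their slide differences were −0.15 (SE 0.23) and 0.02 (SE 0.19). Casp1 read 8.42 in Tat−/Sal replicate 1, the array with the high interferon values, and 7.69 to 7.88 in the others of its group, and without that array its difference was −0.225. Nlrp3 read 8.31 in Tat−/Sal replicate 4, without which its difference was −0.36. Tgfb1 had the opposite sign, 6.66 to 6.91 in Tat−/Sal against 7.00 to 7.47 in Tat+/Sal (difference 0.43, SE 0.15, adjusted p = 0.117, slide difference 0.25). MHC class I and complement genes had a median close to 0 over 21 genes with 0 called (1 in each direction at an unadjusted p under 0.05).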

How the data were processed

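The authors deposited 1-colour Agilent scanner files (Cy3; Feature Extraction software), whose intensity values per spot include a foreground, a local background and a processed value with the background taken off, and a series matrix, whose deposited intensity values match the background-subtracted signal plus a constant per array. The study's methods name another dye, scanner and array format than the file headers, so the latter were followed. Outlier spots were left out (4278 over 20 arrays), replicate spots were averaged as log2 values, and the 75th percentile of each array was subtracted with the mean over arrays added back. The brightest probe well above background on all 5 arrays of at least 1 saline group stood for a gene.

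limma (3.58.1, R 4.3.3) was fitted to all 20 arrays with 1 mean per group, and p-values were adjusted over all 14996 genes. Slides came from the array barcodes, and a model of 5 cells (group by slide) gave the slide difference and the Tat difference less it, which equals slide as a fixed block. Both scripts were tested on simulated data. Arrays give no counts, so their number limits the precision. Tables were made with pandas 2.3.3 and figures with matplotlib 3.10.9 (Python 3.11.15).

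Genes named are those called above 2-fold, in each direction the 12 largest changes among called genes without overlap and measured on all 10 arrays, up to 8 called genes in order of p with a slide difference of the other sign or under 25%, up to 4 members of each gene list, and Gfap; not all are printed, and some are not reported here. The following were chosen after their values were seen: Bcam, Isg15, Oas1a, Oas2, Iigp1, Tppp3, Pifo, Gapdh, Pfkm, Pfkl, Tpi1, Ldha, Map2k2, Map3k11, Csf2ra, Nlrp3, Casp1 and Zfp560. The members, gene lists and properties examined were chosen with earlier results of these data known. Locus lengths and promoters came from RefSeq tables (GRCm38.p6) matched by symbol; all 14996 genes had a length. Alternatives were other scalings and background corrections, filters, probe rules, slide and replicate blocks, smaller fits, the methods' t-test and each array left out; 2 further ones, each without a pair of arrays, were chosen after seeing the data.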

Additional observations from a re-analysis of the deposited data

Results flagged for a closer look

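Within the saline groups 268 sets of 5 values were examined for 1 array far from the other 4, and 18 (6.72%) were flagged, where chance flags about 5%. The ratio of the gap to the whole range is given for each. Replicate 1 of Tat−/Sal was the high array for the interferon list mean (0.738), Igtp (0.751), Irf9 (0.742), Casp1 (0.740) and Csf2rb2 (0.780) and the low one for Map2k2 (0.714). The cortical list mean was high on replicate 4 of Tat−/Sal (0.743) and on replicate 1 of Tat+/Sal (0.962), and on the latter Tbr1 (0.846) and Neurod2 (0.845) were high as well. The microglia list mean was low on replicate 3 of Tat+/Sal (0.745). Single genes with 1 array apart in Tat−/Sal were 4933421O10Rik (0.828), Smad7 (0.900), Gria2 (0.720), Ubxn11 (0.750) and Tgfb1 (0.720), and in Tat+/Sal Smg8 (0.786) and Ppt2 (0.737).

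For the 4 genes past 2-fold, the Tat difference under saline was tested against that under Meth. The former less the latter was −4.63 log2 units in Bex6, −3.25 in Cox17, −3.50 in Abhd3 and −3.04 in Ccne2, each at an adjusted p under 0.05 in limma. Of these only Cox17 was well above background on all 5 arrays of each group. Bex6, Abhd3 and Ccne2 were so on 0 of 5 Tat−/Meth arrays and on 1, 2 and 0 of 5 Tat+/Sal arrays, so their values are differences of signals near background and no measure of size. All Tat−/Meth arrays lay on slide 1, so the treatment and the slide cannot be told apart there.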

How the results depend on the processing

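The main comparison called 220 genes, 4 of them past 2-fold. Called genes numbered 506 with quantile normalization (42.5% higher, against 54.1%), 738 with cyclic loess, 3 with median scaling and 15 with no scaling (0 higher in both). With no scaling the median over all genes was −0.16. The count was 137 with normexp, 113 with the series matrix values and 29 with no filter on dim probes. It was 11 with only the 2 groups (0 higher), 64 without Tat−/Meth, 338 with a trend in the prior variance and 0 with slide as a fixed block. Slide as a random block gave 2341 (46.6% higher), with a fitted correlation within slides of −0.0621. Each saline group lay on a slide of its own, so a correlation below 0 lowers the SE here and does not allow for slide. The methods' t-test called 2847 at an unadjusted p under 0.05, 8 of them past 2-fold, and 12 at a Benjamini-Hochberg adjusted p under 0.05. The first is not the study's full rule. Its methods also ask for an adjusted p under 0.01 and a 3-fold filter, and its table of counts used an adjusted 0.05 with 2-fold. In the main limma comparison the count at 0.01 for the adjusted p together with 3-fold was 0. An unadjusted p under 0.05 gave 3106 there, 13 of them past 2-fold. With each array left out the count ran from 5 to 567. Past 2-fold it was 1 with normexp and with genes well above background in both groups, 2 with the series matrix, 15 with every probe, 17 and 0 with the random and fixed slide block, and 2 to 6 with each array left out. The slide difference and the Tat difference less it called 0 to 5 genes each with an array left out, and 0 except without Tat+/Meth replicate 1 (2 and 4), 4 (5 and 5) or 5 (4 and 3). Of 2 alternatives chosen after seeing the data, the one without replicate 1 of both groups called 33 genes (2 past 2-fold), and the one without Tat−/Sal replicate 4 and Tat+/Sal replicate 1 called 38. Single genes turned sign on another probe (Son 0.137, Ppp2r3d −0.0768, Ogdh −0.26, Zfp84 0.078) or with slide as a fixed block (Tnfrsf10b 0.0093). The causes were not tested.

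The replicate numbers do not pair the mice, since the deviations of same-numbered arrays correlated at r = −0.01 to 0.15 and only numbers 3 and 5 were each other's best match. The fit with the replicate number as a block called 555 genes. Of the 71 called genes followed through the alternatives, 0 turned sign with 1 array left out, and 358 of their 710 values so obtained did not pass. Signal over background limits the dimmest genes, among them Abhd3, Bex6 and Ccne2, 3 of the 4 past 2-fold, which were well above background on 2, 1 and 0 of the 5 Tat+/Sal arrays.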
